A study of Mus musculus with 2 samples.

Results

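The genes described here are the kinases of the mitogen-activated protein (MAP) kinase cascades, the dual-specificity phosphatases and the Ras inhibitors that lie near STAT5 binding regions. They were taken by name from the deposited gene table, as every gene whose symbol starts with Map2k, Map3k, Map4k, Mapk, Dusp, Spry, Spred or Rasa. This gave 29 of 4934 genes in the table: 16 kinases, 1 scaffold protein, 7 dual-specificity phosphatases and 5 Ras inhibitors.

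STAT5 binding was profiled by chromatin immunoprecipitation and sequencing in effector CD8 T cells of C57BL/6 mice, with an anti-STAT5 antibody. Both groups held OT-I cells, whose transgenic T cell receptor recognises an ovalbumin peptide. In both, the cells had been transferred into mice, primed there with that peptide plus agonists of CD134 and CD137, which are costimulatory receptors, and recovered from spleens by sorting 4 days later. The control group is 1 library of cells without further treatment, and the IL-2 group is 1 library of cells treated in vitro with 0.5 µg/ml IL-2 for 1 hour. How many animals gave the cells is not stated in the labels. With 1 library a group there was no replicate and no test, so every difference below compares 2 libraries and not the conditions.

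MAP kinases work in tiers. A MAP4K or a small GTPase such as Ras starts the signal, a MAP3K phosphorylates a MAP2K, the MAP2K phosphorylates a MAP kinase (ERK, JNK, p38 or ERK5), and some MAP kinases act on MAP kinase-activated kinases below them. Dual-specificity phosphatases remove the activating phosphates from MAP kinases, and Sprouty and Spred proteins and Ras GTPase activators restrain Ras above the ERK branch. In T cells these cascades run downstream of the antigen receptor and of cytokine receptors, and IL-2 activates both STAT5 and the Ras-ERK pathway.

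The table gives, for each gene, the number of regions, the mean peak height of each library over those regions, and the highest peak. Heights are in signal units, and neither the depth nor the scaling of the libraries is stated. All 29 genes had a region called in the IL-2 library, as did all 4934 genes, and none (0) had one called in the control library (background 0.243% of listed genes). A gene entered the table through such a region, so the ratios favour IL-2 by selection. The log2 ratio used here was computed after 5 was added to both heights, with IL-2 in the numerator, and with control heights near 5 it understates the fold of the heights themselves.

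The IL-2 library was the higher of the pair at each of the 29 genes, as it was at all 4934 listed genes. Among the 29 the heights ranged widely. Control heights lay between 2 and 8 (median 4.33, against 5 over all listed genes), and IL-2 heights between 10 and 109 (median 20.5, against 20.8). The ratio was at least 2 for 26 of the 29 genes, beside 83.8% of all listed genes, and at most 0.5 for 0, beside 0.0% of all. The median log2 ratio was 1.39, beside 1.42 over all listed genes. By this count and median these genes lay close to the table as a whole, but more of them were high: 7 of the 29 (24.1%) had an IL-2 height of 50 or more, a bound chosen after the values were seen, beside 10.5% of all. When the IL-2 heights were scaled so that both libraries had the same median, which shifted the log2 ratio of all listed genes by a median of -1.36, 18 of the 29 genes had the larger value in the IL-2 library and 11 in the control library. For all 4934 genes the same scaling gave 2898 and 2036. After it, 5 of the 29 genes had a ratio of at least 2, beside 295 of all 4934. The 11 genes higher in the control library were Map2k1, Map3k6, Map3k8, Map4k2, Map4k4, Mapk6, Dusp2, Dusp4, Dusp21, Dusp22 and Rasa1.

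**Figure D1:**
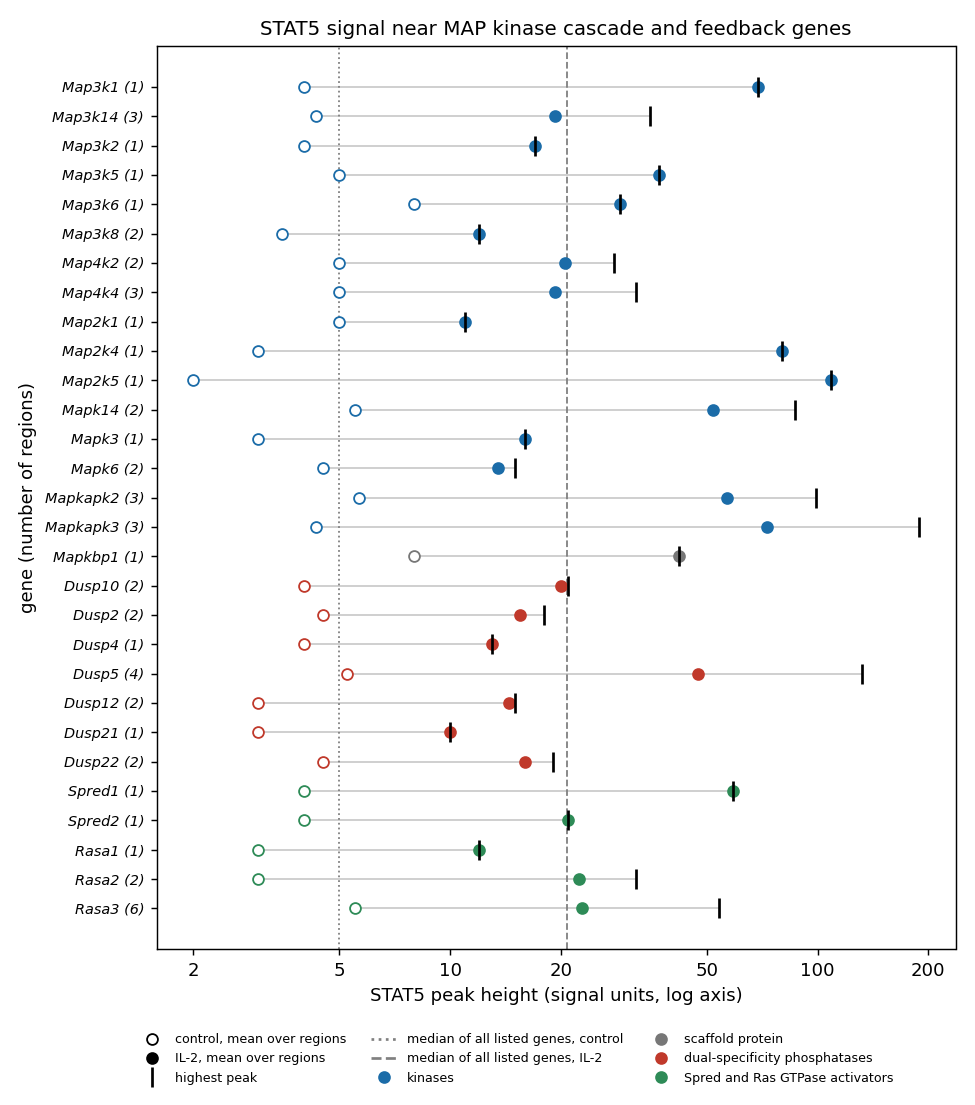
STAT5 peak height (signal units, log axis) for each of the 29 genes, with its number of regions in parentheses: open circles are control means, filled circles IL-2 means, black ticks the highest peak, and vertical lines the medians of all listed genes. Control circles lie between 2 and 8 for every gene, while IL-2 circles spread from 10 at Dusp21 to 109 at Map2k5.

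IL-2 heights ran from 11 to 109 among the kinases, the largest group. They ran from 10 to 47.3 among the phosphatases and from 12 to 59 among the Ras inhibitors. An IL-2 height of 50 or more was reached by 6 of 16 kinases, 0 of 7 phosphatases and 1 of 5 Ras inhibitors, beside 10.5% of all listed genes. That bound was chosen after the values were seen, and the phosphatase Dusp5 lay just under it at 47.3. One of the 6 kinases, Mapkapk3, shares regions with Cish. The median IL-2 height was 24.8 for the kinases, 15.5 for the phosphatases and 22.5 for the Ras inhibitors. Median control heights were 4.42, 4 and 4. Median log2 ratios were 1.39, 1.14 and 1.53. After scaling to equal medians they became 0.098, -0.10 and 0.16, beside 0.090 over all listed genes. Equal medians leave no overall difference by construction, so a group below the median of all listed genes falls near or under 0. The phosphatase median, 1.14 against 1.42 over all listed genes before scaling, changed sign in this way. The ranges of the 3 groups overlapped, and the difference between them was not tested.

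**Figure D2:**
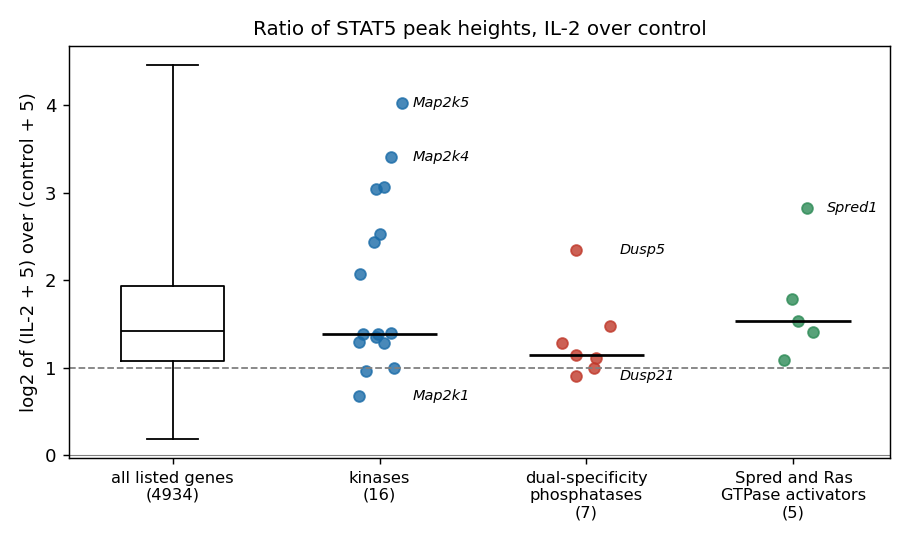
Log2 ratio of IL-2 over control height with 5 added to each, for all 4934 listed genes (box: quartiles and median, whiskers: full range) and for each gene of 3 groups (points, bar at the median); the dashed line marks a ratio of 2. The points run from 0.68 at Map2k1 to 4.03 at Map2k5 within the kinases, and 1 phosphatase, Dusp5, stands above 2.

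Among the MAP2Ks, which activate the MAP kinases directly, 3 of 7 annotated genes had a row in the table, each with 1 region. Map2k5, the kinase that activates ERK5, had a height of 2 in the control library and 109 in the IL-2 library (log2 ratio 4.03). Its region lay deep in the gene, 102524 bases from the start, at position 63275328 of chromosome 9. Only 38 of the 4934 listed genes had an IL-2 height that high or higher. Map2k4, which phosphorylates JNK and p38, had 3 in the control library and 80 in the IL-2 library (log2 ratio 3.41), at a region 6679 bases upstream of its start on chromosome 11. That region was also assigned to an uncharacterised gene, LOC101055694, and the start of Map2k4 was the nearer. Map2k1, which encodes MEK1 of the ERK branch, had 5 and 11 (log2 ratio 0.68), and 3.77% of listed genes had a ratio as low or lower. So within one tier the IL-2 heights were 11, 80 and 109, while the control heights were 5, 3 and 2.

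The Map2k1 region was the only one of the 3 at a gene start, 27 bases upstream, and its promoter is shown as a start with a low IL-2 height. The stretch runs from 250 bases before the RefSeq start to 30 bases from the start on (GRCm38.p6, the mm10 build, chr9:64253576-64253855, minus strand). It was searched for TTCNNNGAA, the spaced palindrome bound by STAT5, and for the same palindrome with a spacer of 4 bases in place of 3. It holds neither, so no base is in capitals.
Map2k1: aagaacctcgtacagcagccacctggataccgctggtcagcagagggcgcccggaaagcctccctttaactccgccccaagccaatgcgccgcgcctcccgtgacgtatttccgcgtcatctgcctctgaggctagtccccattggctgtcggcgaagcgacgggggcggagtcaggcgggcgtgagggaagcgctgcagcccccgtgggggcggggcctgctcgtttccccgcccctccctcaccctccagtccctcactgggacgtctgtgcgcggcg

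Among the MAP kinases themselves, 3 of 13 annotated genes had a row. Mapk14, which encodes p38α, had 5.5 in the control library and 52 in the IL-2 library over 2 regions (log2 ratio 2.44). Its highest peak was 87, which leaves 17 for the other region, and the table does not say which of the pair was the higher. Both regions lay inside Mapk14, 1090 and 7234 bases from the start, and both were also assigned to Slc26a8, which starts nearby. Mapk3, which encodes ERK1, had 3 and 16 (log2 ratio 1.39) at a region 16374 bases past its start and beyond its end. That region was shared with 4 other genes, and the start of Ypel3 was the nearest. Mapk6, which encodes the atypical kinase ERK3, had 4.5 and 13.5 over 2 regions (log2 ratio 0.96), with heights of 15 and 12 with IL-2. Both Mapk6 regions were also assigned to 4933433G15Rik. The one 4242 bases upstream of Mapk6 lay inside that gene and nearer its start. The IL-2 heights of Mapk3 and Mapk6 lay under the median of all listed genes, and that of Mapk14 above it.

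The first Mapk14 region is of interest because RefSeq places a second start of the gene there. The region position, 28692432 on chromosome 17, lies 136 bases upstream of that start. The window of that start (chr17:28692318-28692597, plus strand) is printed with both motif matches in capitals. TTCNNNGAA begins 232 bases upstream of the start and the wider form 45 bases upstream, and they lie 88 and 91 bases from the region position.
Mapk14: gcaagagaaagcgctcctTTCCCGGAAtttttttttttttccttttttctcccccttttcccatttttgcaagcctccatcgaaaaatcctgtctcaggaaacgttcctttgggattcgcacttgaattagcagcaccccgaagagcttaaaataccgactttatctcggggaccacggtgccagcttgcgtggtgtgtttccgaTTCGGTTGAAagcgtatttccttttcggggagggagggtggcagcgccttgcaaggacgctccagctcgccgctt

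Both listed MAP kinase-activated kinases, which are phosphorylated by p38 and act on proteins that control cytokine mRNA, had high IL-2 signal. Mapkapk2 had 5.67 in the control library and 56.7 in the IL-2 library over 3 regions (log2 ratio 2.53). Its highest peak was 99 and the mean of its other 2 regions was 35.5. Of the 3, those at 7687 and 16679 bases lay inside the gene, and the remaining region lay 48135 bases past the start, where the start of Il10 was the nearest of listed genes. Mapkapk3 had 4.33 and 73 over 3 regions (log2 ratio 3.06), with a highest peak of 189. Its other 2 regions averaged 15, so the mean rested on a single region.

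Mapkapk3 lies next to Cish, which encodes an inhibitor of cytokine receptor signalling and is a known STAT5 target. The pair shares 2 regions, and the table gives a highest peak of 189 to Cish as well. One shared region lay 373 bases inside Mapkapk3. The other lay 6827 bases upstream of it and 15 bases inside Cish. Which of them held the peak is not determined by the table. Another region, 9173 bases inside Mapkapk3, was assigned to that gene alone. Cish had 5 in the control library and 70.4 in the IL-2 library over 5 regions.

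Start windows at both shared regions are printed to show how they differ. That of Cish (chr9:107296409-107296688, plus strand) holds TTCNNNGAA 2 times in close succession, at the first base of the RefSeq transcript and 11 bases further on. They end 37 and 26 bases short of the region position. The window of the inner RefSeq start of Mapkapk3 (chr9:107289367-107289646, minus strand) holds the form with the spacer of 4 bases once, 71 bases upstream of the start and 37 bases from the region position. Capitals mark these matches.
Cish: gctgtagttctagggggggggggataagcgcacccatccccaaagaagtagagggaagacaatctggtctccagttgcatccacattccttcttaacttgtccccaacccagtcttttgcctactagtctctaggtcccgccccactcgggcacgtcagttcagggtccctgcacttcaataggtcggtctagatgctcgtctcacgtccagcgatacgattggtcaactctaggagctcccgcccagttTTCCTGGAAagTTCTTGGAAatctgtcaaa
Mapkapk3: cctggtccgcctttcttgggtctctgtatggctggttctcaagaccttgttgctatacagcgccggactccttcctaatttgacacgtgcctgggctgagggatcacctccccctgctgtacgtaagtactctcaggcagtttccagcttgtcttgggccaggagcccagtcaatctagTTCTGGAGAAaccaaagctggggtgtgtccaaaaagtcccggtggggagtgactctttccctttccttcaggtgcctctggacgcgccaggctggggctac

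These motifs are common, and a match only describes letters in a window. Over windows of 300 bases at all 32851 RefSeq starts in the promoter table, 8.30% held TTCNNNGAA and 6.95% held the wider form. Each motif reads the same on both strands. Matches of the 2 forms can overlap, and none did in the windows printed. For the genes described here 27 windows of 23 genes were matched. Of these 27, TTCNNNGAA was in 2 (Map2k4 and Mapk14) and the wider form in 3 (Dusp12, Mapk14 and Mapkapk3). The windows were taken at gene starts, whether or not a region lay there. Only those of Map2k1, Mapk14 and Mapkapk3 held a region of their own gene. The Map2k4 region lay 6617 bases upstream of the RefSeq start, and the Dusp12 regions lay past the gene end. The matches of Map2k4 and Dusp12 were therefore not at a region.

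At the MAP3K tier 6 genes had a row, and IL-2 heights ran from 12 to 69. Map3k1, an activator of the JNK branch, was the highest with 4 in the control library and 69 in the IL-2 library (log2 ratio 3.04), at a region 30103 bases inside the gene. Map3k5, the stress-responsive kinase ASK1, had 5 and 37 (log2 ratio 2.07), also at a single region inside the gene, 28322 bases from its start. These were the only MAP3K genes with a ratio of 4 or more after 5 was added to both heights. Without that addition Map3k14 (4.46) and Map3k2 (4.25) also passed 4.

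The remaining MAP3K genes had IL-2 heights of 12 to 29. Map3k14, the NF-κB-inducing kinase NIK, had 4.33 and 19.3 (log2 ratio 1.38) over 3 regions within the first 2505 bases of the gene. One of these reached 35 and the others averaged 11.5. Map3k6 had 8 and 29 (log2 ratio 1.39), but its region lay 22446 bases past its start and 177 bases upstream of Sytl1. Map3k2 had 4 and 17 (log2 ratio 1.29), and Map3k8, the kinase Tpl2 that feeds the ERK branch, had 3.5 and 12 (log2 ratio 1.00) over 2 regions of 12 each. A further MAP3K, Map3k20, stood in the table under the older name B230120H23Rik with 5.5 and 25, and is not counted here.

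The MAP4Ks had IL-2 heights just under the median of 20.8 over all listed genes. Map4k2 had 5 and 20.5 over 2 regions (log2 ratio 1.35). Its region 354 bases upstream of the start had 6 and 28, and a region past its end, nearest the start of Sf1, had 4 and 13. Map4k4, which acts above JNK, had 5 and 19.3 over 3 regions inside the gene (log2 ratio 1.28), with a highest peak of 32 and a mean of 13 for the others. After scaling to equal medians both MAP4Ks were slightly higher in control (log2 ratios -0.0087 and -0.050).

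Mapkbp1, a JNK-binding scaffold protein and the only scaffold or binding protein among the 29 genes, had 8 and 42 (log2 ratio 1.85). Its region lay 54709 bases from its start, past the gene end, and 75 bases upstream of Jmjd7. That region was also assigned to Jmjd7, Pla2g4b and LOC101056214. The start of LOC101056214 was the nearest of listed genes, with the region 52 bases inside it. The 29 bases printed (chr2:120027399-120027427, plus strand) are a TTCNNNGAA match, in capitals, with 10 bases on each side. Its first base is 1 base from the region position. Region positions were multiples of 16 bases in 95.5% of cases, so that distance cannot be read to the base.
Jmjd7: tgctagcaaaTTCTGAGAAgagcgccgct

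Dusp5, a nuclear phosphatase of ERK, differed from the other 6 dual-specificity phosphatases in number of regions and in height. It had 4 regions, with means of 5.25 in the control library and 47.3 in the IL-2 library (log2 ratio 2.35), and a highest peak of 132. The other 3 regions averaged 19, so a single strong region set the mean, and the table does not say which. The regions lay 1798 and 113 bases upstream of the start, 7610 bases inside the gene, and 15087 bases from the start beyond its end. All 4 were assigned to Dusp5 alone.

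The Dusp5 promoter is printed because a region lay at the gene start. RefSeq puts the start 173 bases upstream of the start used in the deposited table, so that region falls 60 bases past the RefSeq start and outside the stretch shown (chr19:53528895-53529174, plus strand). Neither form of the STAT5 motif was in its window. The window holds only 50 bases from the RefSeq start on, so the region position itself was not searched. The capitals mark 2 adjoining CArG boxes, the motif of serum response factor, which works with ERK-phosphorylated ETS factors. They begin 82 and 72 bases upstream of the start. A CArG box was in 1.63% of all windows and in 1 of the 27 windows of the genes described here. That motif was searched after the sequence had been seen.
Dusp5: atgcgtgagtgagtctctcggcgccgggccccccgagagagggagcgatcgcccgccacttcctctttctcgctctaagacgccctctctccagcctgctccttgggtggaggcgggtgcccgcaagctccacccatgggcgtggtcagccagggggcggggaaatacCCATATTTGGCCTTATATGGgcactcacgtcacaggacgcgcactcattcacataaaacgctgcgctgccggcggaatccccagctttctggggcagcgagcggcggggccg

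The other typical MAP kinase phosphatases had IL-2 heights of 13 to 20, under the median of 20.8 over all listed genes. Dusp10, which acts on JNK and p38, had 4 and 20 over 2 regions (log2 ratio 1.47). Its region 10403 bases inside the gene had 2 in the control library and 21 in the IL-2 library, and one 541 bases upstream, inside the neighbouring transcript 1700056E22Rik, had 6 and 19. Dusp2, a nuclear phosphatase known from activated lymphocytes, had 4.5 and 15.5 over 2 regions (log2 ratio 1.11), with heights of 18 and 13 with IL-2. For both, the start of Astl was nearer than that of Dusp2. Dusp4 had 4 and 13 (log2 ratio 1.00) at a region 534 bases inside the gene. None of these 3 genes had a peak above 21.

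Atypical phosphatases, which lack the MAP kinase-binding domain of the typical ones, had IL-2 heights of 10 to 16, also under that median. Dusp22, which in T cells acts on the kinase Lck, had 4.5 and 16 over 2 regions inside the gene (log2 ratio 1.14), of 19 and 13 with IL-2. Dusp12 had 3 and 14.5 (log2 ratio 1.29), and both its regions lay past the gene end at the start of Atf6. Dusp21 had 3 and 10 (log2 ratio 0.91), and 4925 of the 4934 listed genes had an IL-2 height as high or higher. After scaling, Dusp2, Dusp4, Dusp21 and Dusp22 had the larger value in the control library, and Dusp5, Dusp10 and Dusp12 in the IL-2 library.

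**Figure D3:**
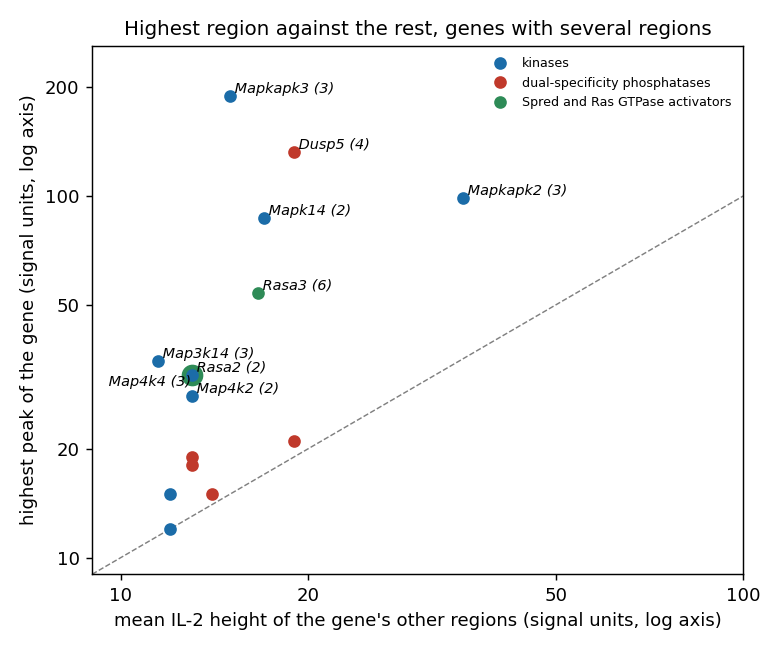
Highest peak (vertical) against the mean IL-2 height of the gene's other regions (horizontal), both in signal units on log axes, for the 15 genes with more than 1 region; the number of regions is in parentheses and the dashed line marks equality. Mapkapk3, Dusp5, Mapk14 and Mapkapk2 lie farthest up at 189, 132, 87 and 99, and Map4k4 and Rasa2 coincide at 32 against 13.

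Among the Ras inhibitors, Spred1 stood highest. Spred1, which keeps Ras from activating Raf together with neurofibromin, had 4 in the control library and 59 in the IL-2 library (log2 ratio 2.83) at a single region 1590 bases inside the gene. Spred2 had 4 and 21 (log2 ratio 1.53), at a region 64694 bases inside the gene. The pair had equal control heights, and the IL-2 height of Spred1 was exceeded or equalled by 340 listed genes, Spred1 included, against 2464 for Spred2.

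The Ras GTPase activators, which speed the return of Ras to its inactive form, had IL-2 heights of 12 to 22.8 and differed in number of regions. Rasa3 had 6 regions, the most of any gene here, all inside the gene between 2771 and 82035 bases from the start. Their mean was 5.5 in the control library and 22.8 in the IL-2 library (log2 ratio 1.41), with a highest peak of 54 and a mean of 16.6 for the others. Rasa2 had 3 and 22.5 over 2 regions (log2 ratio 1.78), of 32 and 13 with IL-2, one 369 bases upstream and one 48239 bases inside. Rasa1 had 3 and 12 (log2 ratio 1.09) at a region 340 bases inside the gene. After scaling Rasa1 was slightly higher in the control library (log2 ratio -0.020) and the other 4 Ras inhibitors were not.

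More than 1 region was assigned to 15 of the 29 genes, beside 1642 of all 4934. Kinases had a median of 1.5 regions, phosphatases 2 and Ras inhibitors 1, beside 1 over all listed genes. With genes of a single region only, the median IL-2 height was 33 over 8 kinases, 11.5 over 2 phosphatases and 21 over 3 Ras inhibitors, beside 18 over 3292 listed genes. The 3 highest IL-2 heights at genes with 1 region were those of Map2k5, Map2k4 and Map3k1.

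The 54 regions of these genes lay more within genes than at starts. Of the 54, 9 lay within 1 kb of the start of the gene described (16.7%, Wilson 95% interval 9.02 to 28.7%), beside 22.0% of all 8337 pairs of gene and region in the table. Inside the gene lay 35 of the 54, beside 4169 of all 8337 pairs, 16.7% lay upstream, beside 29.7%, and 18.5% lay downstream, beside 20.3%. Of the Ras inhibitor regions 10 of 11 were inside the gene, of the kinase regions 19 of 28, and of the phosphatase regions 6 of 14. The 4 kinase regions within 1 kb of a start belonged to Map3k14, Map4k2, Map2k1 and Mapkapk3, while those of Map2k5 and Map3k1 lay 102524 and 30103 bases inside.

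**Figure D4:**
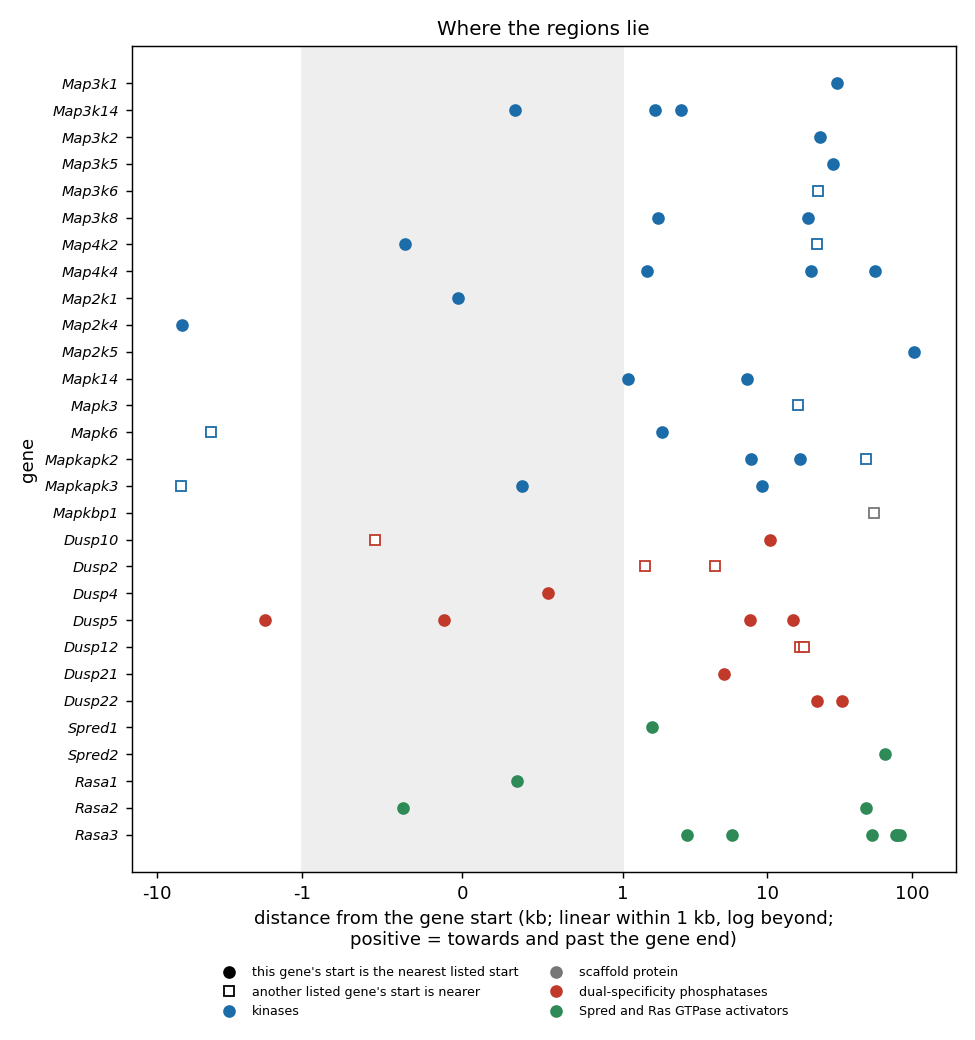
Distance of each of the 54 regions from the start of its gene, in kb on an axis that is linear within 1 kb (grey band) and logarithmic beyond; filled circles mark regions whose nearest listed gene start is that of the gene named, open squares those nearer another listed gene. The band holds 9 regions, and 12 regions are open squares.

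Assignment to a gene did not mean that the region was nearest to it. For 42 of the 54 regions (77.8%) the gene described had the nearest start, beside 63.7% of all pairs of gene and region. For the other 12 another listed gene had it. Every region of Map3k6, Mapk3, Mapkbp1, Dusp2 and Dusp12 was nearer another gene, so 5 of 29 genes had no region of their own by this measure, beside 31.3% of all listed genes. All 11 regions of the Ras inhibitors were assigned to those genes alone. Regions assigned to more than 1 gene made up 52.2% of all pairs and 35.2% of those of the 29 genes. Without the 5 genes the median log2 ratio was 1.73 over 14 kinases and 1.14 over 5 phosphatases.

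Many relatives of these genes had no row in the table used here. RefSeq names 95 protein-coding genes with these prefixes, 3 of which (Spryd3, Spryd4 and Spryd7) are not Sprouty proteins. Of the other 92, 29 had a row under these names, which is 31.5% (Wilson 95% interval 22.9 to 41.6%, counting of genes only), beside 19.1% of all 21900 protein-coding genes. The 19.1% was counted by gene identifier and not by name. Map3k20, which had a row under an older name, is left out of the 29 and of the MAP3K share below. The share was 3 of 7 for MAP2Ks, 6 of 18 for MAP3Ks, 2 of 5 for MAP4Ks, 3 of 13 for MAP kinases and 2 of 3 for MAP kinase-activated kinases. It was 4 of 10 for typical phosphatases, 3 of 14 for atypical ones, 2 of 7 for Sprouty and Spred genes, 3 of 7 for Ras GTPase activators and, the lowest share, 1 of 8 for scaffold or binding proteins.

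Several of the best known feedback genes were among those without a row. For the typical phosphatases these were Dusp1, Dusp6, Dusp7, Dusp8, Dusp9 and Dusp16. Dusp6 encodes the cytoplasmic ERK phosphatase and Dusp1 an immediate early phosphatase. All of Spry1, Spry2, Spry3 and Spry4 had no row, nor did Spred3. Among MAP2Ks the genes without a row were Map2k2, Map2k3, Map2k6 and Map2k7. Among MAP kinases they included the JNK genes Mapk8, Mapk9 and Mapk10, the p38 genes Mapk11, Mapk12 and Mapk13, and Mapk7, which encodes ERK5. Map2k5, with the highest IL-2 height here, therefore had no counterpart row for its substrate.

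Of 76 other genes of the same pathways, from Ras and its activators to transcription factors and adaptors, 36 had a row, beside 19.1% of all protein-coding genes. This list was drawn up with earlier results of these data known. Its share and its median ratio therefore describe the list and cannot show an excess. The ratio was at least 2 for 31 of the 36, beside 83.8% of all listed genes, at most 0.5 for 0 and in between for 5. Their median log2 ratio was 1.59, beside 1.42 over all listed genes. With equal medians the IL-2 library had the larger value for 26 of the 36 and the control library for 10, beside 2898 and 2036 of all 4934. Highest were Ksr1, a scaffold of Raf and MEK (5 and 72, log2 ratio 2.94), Rasgrp1, a Ras activator of T cells (5.5 and 75.5, log2 ratio 2.94), and the AP-1 genes Jund (5 and 71, log2 ratio 2.93) and Junb (5 and 69, log2 ratio 2.89). Lowest were Fos, an immediate early target of ERK (5 and 11, log2 ratio 0.68), and Traf2 (7 and 14, log2 ratio 0.66).

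The feedback inhibitors of the JAK-STAT pathway give a scale for these heights. Socs2 had 5 and 127, Socs1 6.5 and 107.5, and Socs3 4.67 and 49.7. Only Map2k5, Map2k4, Mapkapk3, Map3k1, Spred1, Mapkapk2 and Mapk14 had IL-2 means above that of Socs3, and no phosphatase did. The highest peak of Dusp5, 132, lay between those of Socs3 (125) and Socs1 (156). The 6 CD8 T cell markers looked up (Cd8a, Cd8b1, Cd3e, Cd3d, Cd2 and Lck) all had a row, as did 1 of 5 B cell and 2 of 5 myeloid markers, and a row shows binding nearby and not expression.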

How the data were processed

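Peak heights are a signal made by the authors, who deposited means per gene and library, a highest peak per gene, and the names and distances of the regions. BWA and the mouse build mm10 are named, per the submitters' processing notes; the sources used here give no peak caller, read extension or depth. No column of other samples was present (0).

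Regions were taken from the IL-2 library (5703), and positions were computed from gene start and distance. Of these positions 95.5% were multiples of 16 bases, which limits how finely distances can be read. Heights of single regions were solved from sums over genes, for 2483 regions and 20 of the 54 here, after a test on simulated data. In genes with 2 regions the highest peak and the mean give both heights. Identifiers of all 29 genes were matched to RefSeq (GRCm38.p6), from which promoter sequences came; 6 genes had no promoter window. Analysis used Python 3.11.15 and pandas 2.3.3.

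The members and lists were chosen with earlier results of these data known. Every gene was named, by a rule that took all phosphatases, Ras inhibitors, MAP2Ks and MAP kinases and the extremes of other classes. The MAP kinase-activated kinases were named in addition. From the pathway list the rule took the 4 largest and 2 smallest log2 ratios. No test was run. Wilson intervals have a confidence level of 95%. Alternatives were pseudocounts of 1 and 10, ratio rules of 1.5 and 4, scaling to equal medians, the highest peak, genes of higher signal, genes nearest to a region, the scaffold gene left out, 5 kb in place of 1 kb, and protein-coding genes only.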

Additional observations from a re-analysis of the deposited data

How the results depend on the processing

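No paired analysis was possible because the control and IL-2 groups were 1 library each. Depth and scaling are unknown, so counting error cannot be given. Instead of 26 genes, the rule of 2 took 5 with equal medians and 12 among the 12 genes of higher signal. The rule of 4 took 9. The last settings are stricter or hold fewer genes by construction. Control heights of the 29 genes lay between 2 and 8, and IL-2 heights between 10 and 109. Genes of higher signal were thus picked mostly by their IL-2 height. Their larger ratios, here and over all listed genes, follow from that choice. Over all 4934 genes equal medians left 295, and of the 2467 listed genes of higher signal the rule of 2 took 2426. The rule of 4 was not counted over all genes. For all 29 genes the median log2 ratio was 1.39, against 1.95 at pseudocount 1, 1.08 at 10, 0.086 with equal medians, 1.72 with the highest peak, 2.49 for genes of higher signal and 1.44 for genes nearest to a region. Over all listed genes the median was 1.42, and in the same order 2, 1.06, 0.090, 1.53, 1.93 and 1.46. In that order, without the genes of higher signal, the kinases had 2.01, 1.07, 0.098, 1.98 and 1.73. The phosphatases had 1.63, 0.84, -0.10 and 1.32 in the first 4 settings, and the Ras inhibitors 2.14, 1.15, 0.16 and 2.21. With equal medians 8 genes with a ratio of at least 2 turned to the control side: Map3k6 (-0.12), Map3k8 (-0.11), Map4k2 (-0.0087), Map4k4 (-0.050), Dusp2 (-0.12), Dusp4 (-0.15), Dusp22 (-0.10) and Rasa1 (-0.020). By construction equal medians leave no overall difference. The share of regions near the gene start was 38.9% within 5 kb.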
